A study of Mus musculus with 8 samples.

Results

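Tumor necrosis factor, its close relatives, its receptors and the protease that releases it were followed through the first 2 h of the macrophage response to LPS. The group comprised 7 genes taken by symbol from the deposited table of 23143 symbols: the ligand genes Tnf, Lta, Ltb and Tnfsf9, the receptor genes Tnfrsf1a and Tnfrsf1b, and the sheddase gene Adam17. All 7 were found, and all 7 were among the 12166 genes kept by a filter on low counts, a mean of 10 or more normalized reads over the libraries. RNA had been sequenced from RAW264.7 cells, an established mouse macrophage line, that were left unstimulated (0 min) or exposed to 100 ng/ml E. coli LPS, serotype O111:B4, for 15, 30, 45, 60, 75, 90 or 120 min. Each of the 8 time points was represented by 1 library of 100250892 to 159077286 counted reads, so that no difference between time points had a replicate check and all intervals given here are 95% intervals for counting error only. The labels call the RNA fraction cytoplasmic and the molecule total RNA. The paper states that total RNA was isolated for this time course.

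TNF is made as a membrane-bound trimer that is cut from the cell surface by ADAM17, also called TACE, and both the membrane form and the soluble form bind TNFR1 (Tnfrsf1a) and TNFR2 (Tnfrsf1b). TNFR1 carries a death domain and is present on most cells, whereas TNFR2 lacks this domain and is found mainly on immune and endothelial cells. ADAM17 also sheds the ectodomains of both receptors, and in myeloid cells its maturation depends on the inactive rhomboid protein iRhom2 (Rhbdf2). Activated macrophages are a major source of TNF, and Tnf mRNA is held in check by AU-rich elements (AREs) in its 3′UTR.

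The identity of the cells was examined first. Summed reads of 8 macrophage marker genes, among them Csf1r, Cd68, Lyz2, Itgam and Cd14, made up 5610 to 6810 counts per 1e6 counts of the library (cpm) in the 8 libraries. The T cell markers Cd3e, Cd3d, Cd4, Cd8a and Lck together reached 0.719 to 1.34 cpm, and most of these reads were on Lck. Of B cell genes, Cd79b had 13 to 43 reads and Cd79a 3 to 16 reads in a library. The NK cell markers Ncr1, Klrb1c and Gzma and the fibroblast markers Col1a1, Col1a2 and Dcn were at 0 in every library, and the fibroblast marker Pdgfra had 1 read, at 0 min. In total RNA of a culture, fewer cells of a type and less RNA per cell cannot be told apart. The ribosomal RNA precursor Rn45s took 8.18% to 9.11% of counts at 0, 30, 60 and 120 min but 13.0% to 20.5% at 15, 45, 75 and 90 min; its part in the results was not tested beyond the alternatives given with them.

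Tnf, Lta and Ltb are neighbours in the major histocompatibility complex (GRCm38.p6). Tnf (chr17:35199367-35202007) and Lta (chr17:35203165-35205578) are transcribed from the minus strand, and 1157 bases separate the 3′ end of Lta from the start of Tnf. Ltb (chr17:35194507-35196305) is transcribed from the plus strand, with 3061 bases between its 3′ end and that of Tnf, and the 3 genes together span 11072 bases. Tnfsf9 is on the same chromosome but 21.9 Mb away (chr17:57105287-57107758). The genes for the receptors and the sheddase are elsewhere: Tnfrsf1a at chr6:125349723-125362483, Tnfrsf1b at chr4:145212368-145246870 and Adam17 at chr12:21323509-21373632.

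Because Tnf and Ltb had very different time courses, the 200 bases upstream of their starts are shown (RefSeq, GRCm38.p6, 5′ to 3′ on the strand of the gene), with matches to a set of core promoter and transcription factor motifs in capitals. The windows are chr17:35202008-35202207 for Tnf and chr17:35194307-35194506 for Ltb. The table's start for Lta, base 35205351 of chromosome 17, lies within the gene as given above, and its window was not used.
Tnf: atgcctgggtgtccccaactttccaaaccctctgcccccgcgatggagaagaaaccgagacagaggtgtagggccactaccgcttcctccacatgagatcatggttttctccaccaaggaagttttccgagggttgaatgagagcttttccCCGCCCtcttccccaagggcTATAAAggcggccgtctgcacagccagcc
Ltb: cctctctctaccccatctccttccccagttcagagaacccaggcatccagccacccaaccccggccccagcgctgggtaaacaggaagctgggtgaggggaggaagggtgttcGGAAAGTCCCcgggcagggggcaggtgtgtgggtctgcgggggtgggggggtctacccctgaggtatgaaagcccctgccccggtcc
Motifs were searched on both strands of the 250 bases before the start. TATAAA, the TATA box, was found in Tnf 29 bases before the start, and 12.4% of all 32851 promoters in the table held it. GGGCGG, the GC box bound by Sp1, was found on the opposite strand in Tnf 49 bases before the start, once in Adam17, and at 2 positions in Tnfrsf1b (32.7% of all promoters). The NF-κB consensus was found in Ltb, on the opposite strand 87 bases before the start, and in none of the other 4 members searched (7.25% of all promoters). Neither the AP-1 motif TGACTCA (4.46% of all promoters) nor the CRE TGACGTCA (1.55%) occurred in the window of any of the 5 members searched. A match is a description of these letters. Sites further upstream, and sites that depart from these patterns, were not searched. According to the paper, the Tnf promoter does have NF-κB sites and a cAMP responsive element (CRE). A missing match here therefore does not mean a missing site.

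The 3′UTRs of the 7 members differed in AU-rich motifs. A link of promoter or 3′UTR motifs to the time courses was not tested. The Tnf 3′UTR of 764 bases held 8 ATTTA pentamers and 5 copies of the overlapping nonamer TTATTTATT, a number of nonamers reached by 0.0796% of the 11302 genes with an annotated 3′UTR among those tested. The densest 30 bases (chr17:35199679-35199708, minus strand, starting at base 437 after the stop codon) are shown because they hold 5 of the 8 pentamers, which are in capitals.
Tnf ARE: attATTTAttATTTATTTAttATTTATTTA
Lta had 3 pentamers and 1 nonamer in 572 bases, and at least 1 nonamer was found in 7.42% of genes. Tnfsf9 had 2 pentamers in 253 bases and Tnfrsf1b had 2 in 2324 bases, both without a nonamer. Adam17 had 1 pentamer in 1759 bases, whereas Ltb and Tnfrsf1a had none; 67.3% of the genes had at least 1.

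In unstimulated cells, the sheddase transcript was the most abundant of the 7. Levels per length are given as rpkm, reads per kilobase of unique 58-base positions and per 1e6 reads of the library. At 0 min, Adam17 was at 72.2 rpkm, Tnf at 50.3, Tnfrsf1a at 28.4, Tnfsf9 at 23.3, Ltb at 21.8, Tnfrsf1b at 10.2 and Lta at 0.092 rpkm. The closest neighbours in this order were Tnfsf9 and Ltb, with a ratio of 1.07 (1.02 to 1.12), and the interval of every ratio between neighbours lay above 1. At 120 min the order had become Tnf (1764 rpkm), Adam17 (114), Tnfsf9 (76.1), Tnfrsf1b (43.5), Ltb (20.8), Tnfrsf1a (14.3) and Lta (0.725), and again the interval of every ratio between neighbours lay above 1.

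**Figure D1:**
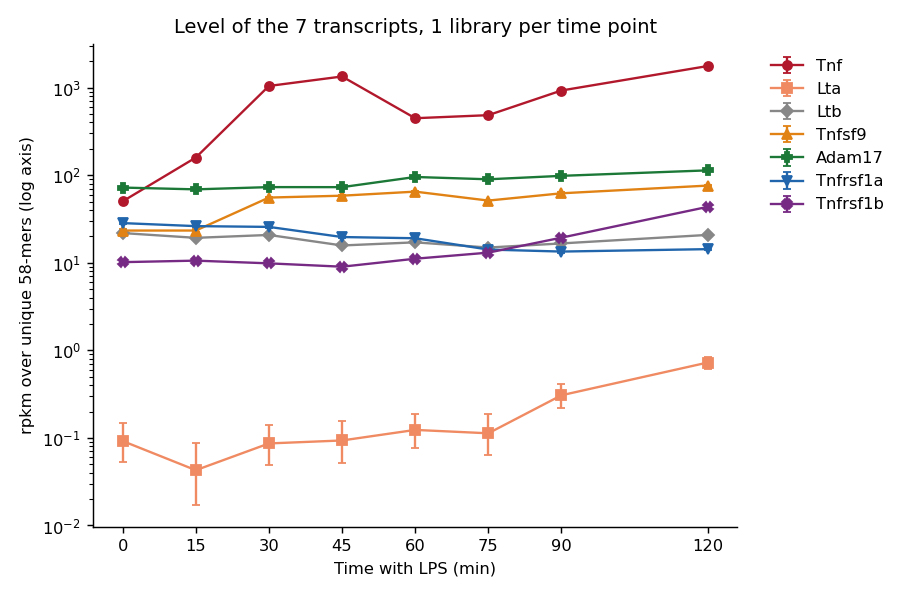
Level of the 7 transcripts in rpkm (log axis) against minutes with LPS; each point is 1 library and the bars are exact Poisson 95% intervals, which are visible for Lta alone at this scale. Tnf passed Adam17 at 15 min (159 against 68.9 rpkm) and reached 1764 rpkm at 120 min, while Lta stayed at or below 0.725 rpkm.

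The response to LPS was then expressed as the ratio of normalized read counts to the 0 min library, and a gene was called higher or lower when the log2 ratio lay beyond 0.5 in either direction. At 15 min, Tnf was called higher, against 2.79% of the 12166 genes, and Lta lower, against 2.15%. At 30 min, Tnf and Tnfsf9 were higher (4.2% of all genes) and no member was lower (2.5%). The same held at 45 min, when 10.5% of all genes were higher and 5.84% lower. At 60 min, Lta joined Tnf and Tnfsf9 (9.08% higher), and again no member was lower (7.46%). From 75 min on, 5 of 7 members were higher, namely Tnf, Lta, Tnfsf9, Adam17 and Tnfrsf1b, and Tnfrsf1a was lower. At 75 min 12.7% of all genes were higher and 11.3% lower. The background shares at 90 min were 14.1% and 12.4%, respectively, and those at 120 min were 16.9% and 15.9%. Ltb was not called at any time.

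These calls depended on the scale at some times. Scaling by total counts lowered every log2 ratio by 0.33 at 75 min, 0.26 at 90 min and 0.20 at 120 min. At 75 min Tnf and Tnfsf9 alone thus remained higher, and Ltb joined Tnfrsf1a as lower. On that scale 5.9% of all genes were higher and 30.9% lower at 75 min. Over all genes the share of higher among all calls then went from 56.5% to 46.1% at 15 min, from 64.3% to 35.8% at 45 min and from 54.9% to 42.1% at 60 min. It went from 53.0% to 16.0% at 75 min, from 53.3% to 24.0% at 90 min and from 51.6% to 29.8% at 120 min.

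**Figure D2:**
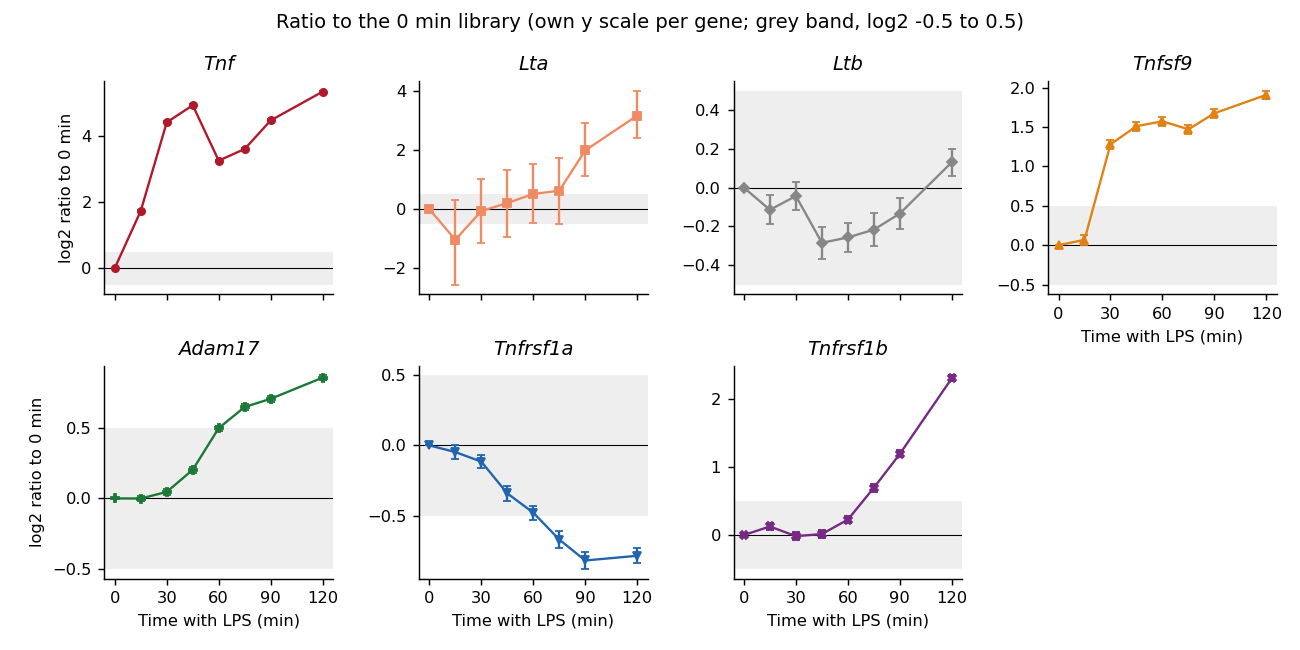
log2 ratio of normalized read counts to the 0 min library against minutes with LPS, 1 panel per gene with its own y scale; bars are exact 95% intervals for counting error and the grey band spans the uncalled range from -0.5 to 0.5. Tnf has a peak at 45 min and a second rise to 5.33 at 120 min, Ltb stays within the band throughout, and Tnfrsf1a is the member that ends below it (-0.79).

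Extrema were called by the rule of the study, which asks for a log2 step beyond 0.5 and an unadjusted p under the limit of 0.05 in an exact negative binomial test; with 1 library per time point this test compares libraries, not conditions. Tnf belonged to the genes with a maximum before 60 min and a minimum at or after it, 1.07% of the 12166 genes. Lta, Tnfsf9, Adam17 and Tnfrsf1b had a first maximum at or after 60 min (9.64% of genes), in each case at 120 min, the last time point. Tnfrsf1a had a first minimum at or after 60 min (9.99%), at 90 min. Ltb had no extremum, as had 77.1% of all genes tested.

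Tnf was among the most abundant transcripts of the stimulated cells. From 0 to 120 min its reads in the 8 libraries numbered 10429, 31052, 230723, 239553, 95188, 76859, 155072 and 443877 in the order of time. By read count it ranked 2588th of the 23143 symbols at 0 min, 20th at 45 min, 162nd at 60 min and 14th at 120 min. In rpkm the values were 50.3, 159, 1045, 1340, 447, 485, 927 and 1764. Every stimulated library lay above the 0 min library, and the levels at 60 and 75 min lay below those at 30 and 45 min and below those at 90 and 120 min.

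The ratio of Tnf to 0 min was 3.31 (3.24 to 3.39) at 15 min, which put it 25th of 12166 genes, and 40.3 (39.5 to 41.1) at 120 min, 45th. The steepest step of the course was that from 15 to 30 min, 6.39-fold (6.32 to 6.47). From 45 to 60 min the level fell to 0.313 of its value (0.311 to 0.316), and from 60 to 120 min it rose 4.24-fold (4.21 to 4.27). The 120 min level was 1.33 times that at 45 min (1.32 to 1.34), a log2 difference of 0.41 that lies below the limit used for calls. Without the 45 min library, or with the 0, 30, 60 and 120 min libraries alone, which all had a low share of Rn45s, the maximum was at 30 min and the minimum stayed at 60 min.

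Among the 10494 genes that averaged 100 or more normalized reads, the pattern of Tnf was most like those of Nfkbia (Pearson's r of log2 values 0.995 over 8 libraries), Dusp2 (0.977) and Ier3 (0.972). Nfkbia encodes the NF-κB inhibitor IκBα and Dusp2 a MAP kinase phosphatase. Nfkbia had a log2 ratio of 2.86 at 45 min and of 1.88 at 60 min before it reached 2.93 at 120 min. Among the other members, Tnfsf9 had the coefficient closest to 1 with Tnf (0.912) and Ltb the one closest to 0 (-0.07). The 8 points of each coefficient are successive time points scaled by common size factors, and the values describe likeness of shape.

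Lta, which encodes lymphotoxin-α, a soluble ligand of both TNF receptors, was close to the limit of detection. Its reads numbered 16, 7, 16, 14, 22, 15, 43 and 153 in the order of time. The 90 and 120 min libraries stood above the first 6. The ratio to 0 min was 3.99 (2.20 to 7.59) at 90 min and 9.06 (5.40 to 16.2) at 120 min, when it ranked 138th of the 12166 genes. From 15 to 75 min all intervals included 1, so the calls at 15 min (0.487, 0.169 to 1.25), 60 min (1.43, 0.718 to 2.92) and 75 min (1.54, 0.711 to 3.33) were within counting error. Within each library Lta was far below its neighbour Tnf, 546 times lower per length at 0 min, 14342 times lower at 45 min and 2432 times lower at 120 min.

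Ltb encodes lymphotoxin-β, which anchors lymphotoxin-α at the membrane in a complex that binds the lymphotoxin-β receptor Ltbr. Its normalized read counts were 2700, 2494, 2620, 2217, 2260, 2324, 2462 and 2957 in the order of time. All lay within 1.33-fold of each other, and the ratio to 0 min ranged from 0.821 (0.776 to 0.869) at 45 min to 1.095 (1.04 to 1.15) at 120 min; with total counts the latter was 0.952, below 1. Ltb thus went from 0.434 of the Tnf level per length at 0 min to 0.0118 of it at 45 min. Lta remained well below Ltb at all times, at 0.0042 of its level at 0 min and 0.0349 at 120 min. Ltbr was at 30.1 rpkm at 0 min and 19.7 rpkm at 120 min. Its normalized read counts went from 6918 to 5194, a ratio of 0.751 that was not called. The rpkm values are scaled by total counts, and on that scale the fall is larger and past the limit for a call.

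Tnfsf9 encodes the 4-1BB ligand, a costimulatory membrane protein. Its normalized read counts were 3223, 3379, 7827, 9177, 9583, 8929, 10282 and 12093 in the order of time. The first 2 libraries were low and the following 6 high, without overlap. Most of the change came in the step from 15 to 30 min, 2.32-fold (2.23 to 2.41), and the later steps lay between 0.932 and 1.18. The ratio to 0 min was 2.43 (2.34 to 2.52) at 30 min and 3.75 (3.62 to 3.89) at 120 min.

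The step of Tnf from 45 to 60 min thus had no counterpart in Tnfsf9, which went 1.04-fold (1.01 to 1.07) in that interval. Per length, Tnfsf9 stood at 0.464 of the Tnf level in unstimulated cells, 0.0435 of it at 45 min and 0.145 at 60 min, and ended at 0.0431. The genes most like Tnfsf9 were Egr2 (r = 0.994), a zinc finger transcription factor, the chemokine gene Cxcl2 (0.991) and Marcksl1 (0.988). Its receptor Tnfrsf9 (4-1BB) was at 0.199 rpkm at 0 min and 0.623 at 120 min, 117 and 122 times below the ligand.

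The transcripts of the TNF receptors moved in opposite directions. Tnfrsf1a had normalized read counts of 6676, 6460, 6161, 5268, 4789, 4194, 3782 and 3871 in the order of time. Each library up to 90 min lay below the one before, and the 90 and 120 min libraries differed by less than counting error (1.02, 0.977 to 1.07). The ratio to 0 min was 0.717 (0.693 to 0.743) at 60 min, a log2 value of -0.48 just short of a call, 0.567 (0.543 to 0.591) at 90 min and 0.580 (0.559 to 0.601) at 120 min.

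Tnfrsf1b had normalized read counts of 4283, 4670, 4234, 4326, 5008, 6927, 9767 and 21086 in the order of time. The first 4 libraries lay close together and each later library above the one before. The ratio to 0 min was 1.17 (1.13 to 1.21) at 60 min, 1.62 (1.55 to 1.68) at 75 min, 2.28 (2.20 to 2.36) at 90 min and 4.92 (4.78 to 5.07) at 120 min. The last step, from 90 to 120 min, was 2.16-fold (2.10 to 2.21).

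Within a library the receptors can be compared without any scaling between libraries. The Tnfrsf1b level per length was 0.358 (0.346 to 0.371) of the Tnfrsf1a level in unstimulated cells and 0.403, 0.383, 0.458 and 0.584 of it in the following 4 libraries, up to 60 min. It was 0.922 (0.881 to 0.965) at 75 min, 1.44 (1.38 to 1.50) at 90 min and 3.04 (2.95 to 3.14) at 120 min. Hence the order of the receptor transcripts turned between 75 and 90 min, libraries that both had a high share of Rn45s.

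**Figure D3:**
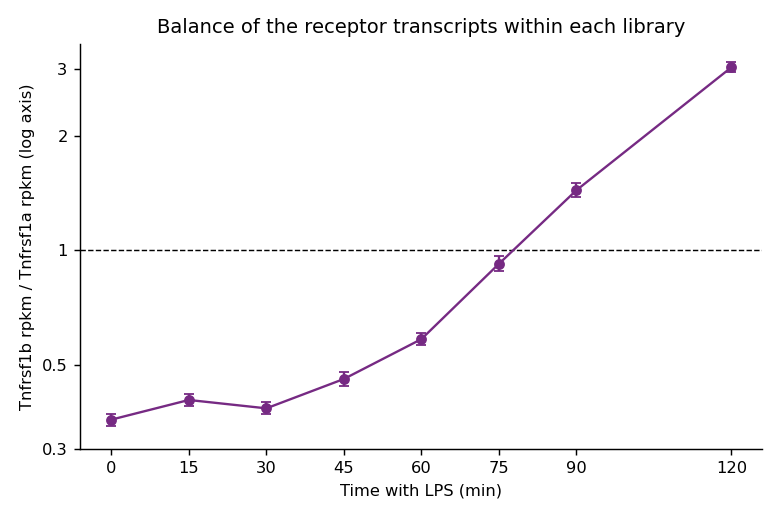
Ratio of the Tnfrsf1b to the Tnfrsf1a level per length (log axis) within each library against minutes with LPS; bars are exact 95% intervals for counting error and the dashed line marks equal levels. The ratio lies at 0.358 at 0 min, below 1 up to 75 min, and at 3.04 at 120 min.

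The genes most like Tnfrsf1a were B630019K06Rik (r = 0.999), L3mbtl2 (0.998) and Erbb3 (0.996), all with falling values (log2 ratio at 120 min -0.48, -0.46 and -0.61). Those most like Tnfrsf1b were Nckap1l (0.997), Igf2bp2 (0.992) and Igf2r (0.991). The coefficient between the receptors was -0.80 and that between Tnfrsf1a and Adam17 was -0.98.

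Among the TNF superfamily receptors, 18 of 28 passed the filter on low counts. At 120 min 7 were higher and 7 lower, beside 16.9% and 15.9% of all genes. The median log2 ratio was -0.43 beside -0.01 over all genes tested. With total counts as the scale 7 were higher and 10 lower, beside 10.8% and 25.3% of all genes. One of the higher ones, Tnfrsf8, passed the filter through its 120 min library alone (mean of 9.47 normalized reads in the others). The higher ones included Cd40 (12.3, 11.03 to 13.7), which encodes a costimulatory receptor for T cell help, and the death receptor gene Fas (11.4, 9.41 to 13.8), ahead of Tnfrsf1b. The lower ones included Relt (0.432, 0.404 to 0.463) and the decoy receptor gene Tnfrsf22 (0.5998, 0.507 to 0.709). At 60 min 3 receptors were higher and 1 was lower, beside 9.08% and 7.46% of all genes. With total counts 3 were higher and 5 lower at 60 min, beside 7.36% and 10.1% of all genes.

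Among 18 TNF superfamily ligands, 9 passed the filter, and 4 of these are members described above. At 120 min 4 were higher, Tnf, Lta, Tnfsf9 and Tnfsf10, beside 16.9% of all genes, and Tnfsf13b, which encodes the B cell survival factor BAFF, was lower (0.660, 0.571 to 0.762; 15.9% of all genes). Tnfsf10 had 27 reads at 0 min and 43 at 120 min, and the interval of its ratio included 1 (1.51, 0.911 to 2.54). With total counts it was not called. On that scale 3 ligands were higher and 1 was lower, beside 10.8% and 25.3% of all genes. The median log2 ratio was 0.13, which changed sign to -0.07 with total counts. No read was found for Tnfsf11, Cd40lg, Cd70 and Eda; at the depths of these libraries a count of 0 allows up to 0.0189 to 0.0299 cpm.

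Adam17 was called higher from 75 min on, the same time as Tnfrsf1b. Its normalized read counts were 35506, 35491, 36655, 40862, 50115, 55585, 57876 and 64201 in the order of time. The 0 and 15 min libraries did not differ (0.9996, 0.986 to 1.01), and from 30 min on each library lay above the one before. The ratio to 0 min was 1.41 (1.39 to 1.43) at 60 min, 1.57 (1.54 to 1.59) at 75 min and 1.81 (1.79 to 1.83) at 120 min; with total counts it was 1.24 at 75 min and 1.36 at 90 min, which are not called.

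The balance between ligand and sheddase transcripts changed much more. Per length, Tnf was at 0.697 (0.682 to 0.712) of the Adam17 level at 0 min, 2.31 times that level at 15 min, 14.3 times at 30 min and 18.4 times at 45 min. It was 4.69 times the Adam17 level at 60 min and 5.40 times at 75 min, and then 9.43 and 15.5 (15.4 to 15.7) times in the last 2 libraries. The genes most like Adam17 were Wdr1 (r = 0.999), the IL-1 receptor antagonist gene Il1rn (0.998) and Ndel1 (0.998).

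Transcripts of proteins that mature, assist or inhibit ADAM17, and of related proteases, were examined alongside as a list. Rhbdf2 (iRhom2) went from 3414 normalized reads in unstimulated cells to 4846 after 60 min and 10741 after 120 min, a ratio of 3.15 (3.04 to 3.26). Its level per length rose from 0.110 of the Adam17 level at 0 min to 0.192 at 120 min. Furin, the proprotein convertase that removes the ADAM17 prodomain, reached 2.67 (2.61 to 2.74). Frmd8, which encodes an iRhom-binding protein, was at 0.707 (0.682 to 0.733). Its log2 ratio of -0.5004 was just past the limit, and it was called lower. Rhbdf1 (iRhom1) was scarce, at 0.943 rpkm at 0 min, with a ratio of 0.905 (0.778 to 1.05) at 120 min. No read was found for Timp3, which encodes the main tissue inhibitor of ADAM17.

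**Figure D4:**
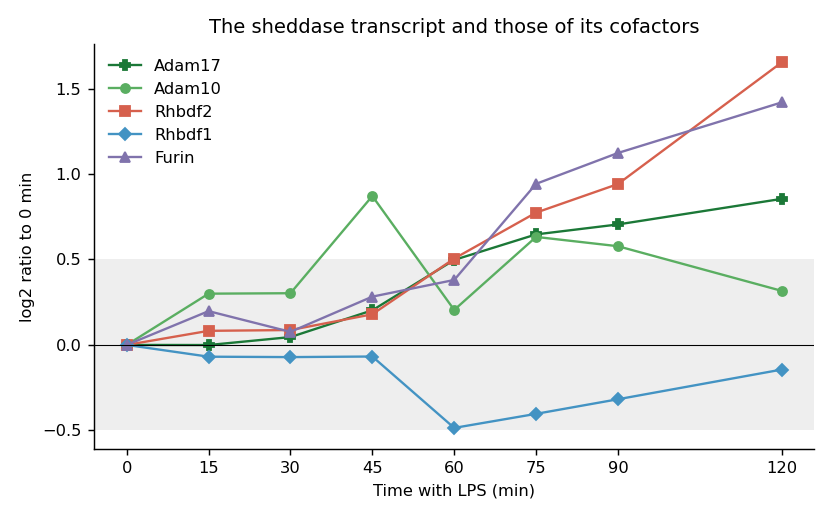
log2 ratio of normalized read counts to 0 min against minutes with LPS for Adam17 and 4 related genes; each point is 1 library and the grey band spans the uncalled range from -0.5 to 0.5. At 120 min Rhbdf2 is at 1.65, Furin at 1.42 and Adam17 at 0.85, while Adam10 peaks at 45 min (0.87).

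Adam10, the closest relative of Adam17, had 6202 normalized reads in unstimulated cells, 11344 after 45 min, 7148 after 60 min, 9611 after 75 min and 7723 after 120 min. It was called higher at 45, 75 and 90 min, 3 of the 4 libraries with a high share of Rn45s. With total counts its log2 ratio was 0.68 at 45 min, 0.30 at 75 min and 0.32 at 90 min, and the calls at 75 and 90 min were lost. In all, 11 of 12 genes of this list passed the filter. The list holds related proteases such as Adam8 and inhibitor genes such as Timp1 beside the helpers of ADAM17. At 120 min 5 were higher (Adam17, Adam8, Rhbdf2, Timp1 and Furin) and 1 was lower (Frmd8), beside 16.9% and 15.9% of all genes. The median log2 ratio was 0.32, or 0.12 with total counts. Adam15 was at 0.893 and was not called.

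Of 14 known ADAM17 substrates, 8 passed the filter. At 120 min 4 were higher, namely Tnf, Tnfrsf1b, Hbegf and Icam1, and 2 were lower, Tnfrsf1a and the IL-6 receptor gene Il6ra (0.685, 0.659 to 0.713), beside 16.9% and 15.9% of all genes. Icam1, which encodes an adhesion molecule, went to 4.71 (4.63 to 4.79). The median log2 ratio was 1.15, or 0.943 with total counts. It lay in the gap between App (log2 ratio 0.25) and Hbegf (2.04), where no gene of the list lay. Tnf and both TNF receptor genes are members described above. Csf1r, the receptor of the macrophage growth factor, was at a ratio of 0.845 (0.838 to 0.851).

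The signalling proteins next to the TNF receptors showed a few large changes among many small ones. All 26 genes of this list passed the filter. At 120 min 8 were higher and 2 lower, beside 16.9% and 15.9% of all genes, with a median log2 ratio of 0.05. With total counts 7 were higher and 4 lower, beside 10.8% and 25.3% of all genes, and the median was -0.15. Tnfaip3, which encodes the ubiquitin-editing enzyme A20, was at 69.1 times its 0 min level at 45 min, 21.5 at 60 min and 39.8 (38.0 to 41.7) at 120 min, with extrema at 45, 75 and 120 min. Traf1 reached 36.4 (35.0 to 37.9), and Cflar, which encodes the caspase-8 inhibitor cFLIP, reached 9.02 (8.81 to 9.23). The adaptor genes Fadd (0.568, 0.529 to 0.609) and Tab1 (0.546, 0.522 to 0.571) were lower, whereas Casp8 was at 0.758 and was not called.

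Of 11 genes for proteins that bind Tnf mRNA, all passed the filter, and at 120 min 5 were higher and 1 lower, beside 16.9% and 15.9% of all genes. The median log2 ratio was 0.37. With total counts it was 0.17, and 4 were higher and 1 lower, beside 10.8% and 25.3% of all genes. Zfp36, which encodes the ARE-binding decay factor tristetraprolin, was at 26.6 times its unstimulated level at 45 min, fell back to 6.92 at 60 min and 3.56 at 75 min, and stood at 5.00 (4.83 to 5.18) in the last library. Its relative Zfp36l1 was at 2.56 at 45 min and 1.05 at 120 min, and Zfp36l2 was at 1.27 at 45 min and at 0.255 (0.245 to 0.266) at 120 min. Zc3h12a (Regnase-1), an endonuclease, reached 12.9 (11.9 to 13.9), and Rc3h1 (Roquin-1) reached 3.66 (3.57 to 3.76), while Tia1 was at 0.852 and was not called.

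The genes around the Tnf locus were compared last. Of 12 genes, 11 passed the filter, and at 120 min 4 were higher (Tnf, Lta, Nfkbil1 and Prrc2a) and none was lower, beside 16.9% and 15.9% of all genes, with a median log2 ratio of 0.18. Tnf and Lta are members described above. With total counts the median was -0.03, and 4 were higher and 1 lower, beside 10.8% and 25.3% of all genes. Nfkbil1 was at 1.76 (1.68 to 1.85) and Prrc2a at 1.64 (1.61 to 1.67). Lst1 (0.894), Aif1 (0.974) and Csnk2b (0.979) were not called. At 30 min Tnf alone was higher in this list.

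**Figure D5:**
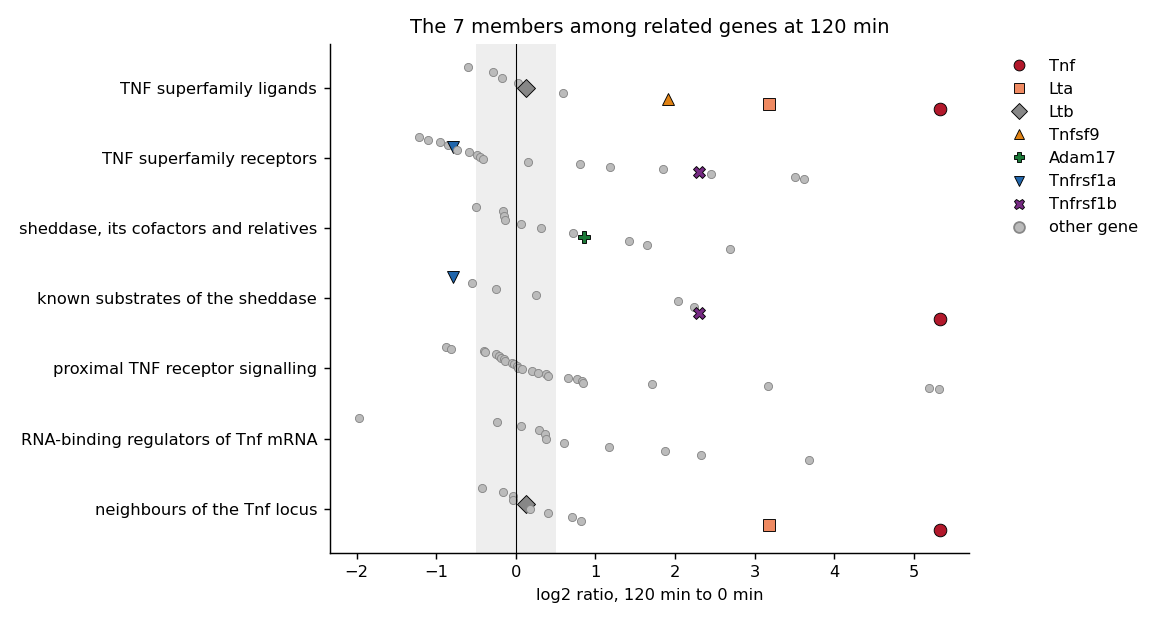
log2 ratio of 120 min to 0 min for the genes of 7 lists that passed the filter on low counts, 1 row per list and 1 point per gene; the grey band spans the uncalled range from -0.5 to 0.5 and members are marked by colour and shape. Tnf lies at 5.33, Lta at 3.18, Tnfrsf1b at 2.30, Tnfsf9 at 1.91, Adam17 at 0.85, Ltb at 0.13 and Tnfrsf1a at -0.79.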

How the data were processed

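RNA from 8 cultures of RAW264.7 cells, 1 per time point, had been depleted of ribosomal RNA and sequenced by the authors. The authors deposited whole read counts per gene symbol, without normalization: reads of 58 bases had been mapped with Bowtie (version not given in the sources used here) to RefSeq transcripts of mm10 with at most 2 mismatches, and reads matching more than 1 symbol had been discarded. The submitters' processing notes name CASAVA 1.8.2 and DESeq 1.10.1. Whether the counting used strand is not given in the sources used here.

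Counts were divided by size factors obtained as medians of ratios (0.71 to 1.23), with scipy 1.17.1, numba 0.67.0, pandas 2.3.3 and numpy 2.4.6 under Python 3.11.15. Ratios have exact conditional binomial intervals and rpkm values exact Poisson intervals at 95%. Unique 58-mers were counted in GENCODE vM21 transcripts matched by RefSeq accession. The exact negative binomial test used a dispersion fitted over the 8 libraries treated as replicates (0.0287 plus 0.853 divided by the mean). A quasi-likelihood test could not be fitted to groups of 1 library. TMM factors came from edgeR 4.0.16 in R 4.3.3. The code for size factors, ratios and their intervals, the negative binomial test and the extrema was tested on simulated data. The spread set in the simulation was smaller than the fitted one. The code for motifs, rpkm, likeness and gene lists was not tested in this way.

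Genes named are the 7 members, up to 3 with the highest and 3 with the lowest 120 min ratio in each list (mean normalized count at least 100), Tnfrsf9, Ltbr, Rhbdf1, Rhbdf2, Adam10 and Timp3, and the 3 genes most like each member; others were named after their values were seen. The members and lists were chosen with earlier results of these data known. Promoters came from RefSeq and were used for 5 of 7 members.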

Additional observations from a re-analysis of the deposited data

How the results depend on the processing

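Each choice was changed in turn. Requiring the fold and an unadjusted p-value limit of 0.05 in the exact negative binomial test left 0 members lower at 15 min, 2 higher and 0 lower at 75 min. With Benjamini-Hochberg adjustment 0 were lower at 15 min, 1 was higher at 30 min, 2 were higher and 0 lower at 75 min, 3 were higher and 0 lower at 90 min, and 0 were lower at 120 min. With a log2 limit of 1, 2 were higher and 0 lower at 75 min, and 0 were lower at 90 and 120 min. With total counts as the scale, 1 was lower at 45 min and 1 at 60 min (Tnfrsf1a), beside 12.0% and 10.1% of all genes. At 75 min 2 were higher and 2 lower on that scale, beside 5.9% and 30.9% of all genes. With total counts without Rn45s, 1 was lower at 60 min, beside 10.3% of all genes. The cause of these differences was not tested. The other counts of members past the fold stayed within 1.5 times the reported ones, also with TMM factors and with a pseudocount of 1. No called ratio changed sign under any scale or pseudocount. The counts also stayed without each stimulated library, but a left-out library enters the remaining ratios through the size factors alone. All 7 members pass the filter, so leaving it out could not change their counts. Neither of these 2 settings therefore tests the calls. The extrema of Adam17 were lost with adjusted p-values, a log2 limit of 1 and total counts, and that of Tnfrsf1a with the first 2 of these; the number of extrema of the other members did not change. Without the 120 min library the late maxima were at 90 min. The 49 ratios to 0 min were each compared under several alternatives. Of these comparisons, 72 moved beyond the counting interval and 418 did not, with log2 shifts between -0.33 and 0.10. Comparisons with a left-out library make up many of the 418, and their log2 shifts lay between -0.00517 and 0.00206. Of the comparisons of an rpkm value with another length or total, 22 moved and 6 did not. Of the 3 genes most like each of the 6 members ranked, r of normalized counts kept between 0 (Tnfrsf1b) and 3 (Ltb), and Spearman's rho kept 0 for Tnfsf9 and Tnfrsf1b and 1 or 2 for the others. No paired analysis was possible because each time point has 1 library. For Lta, with 7 to 22 reads up to 75 min, changes smaller than its intervals were not detectable at this depth.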
